A study of Mus musculus with 8 samples.

Results

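Expression of 8 acetylcholine receptor genes was examined in the cortex of tau transgenic mice: the muscarinic receptors Chrm1, Chrm2, Chrm3 and Chrm4 and the nicotinic subunits Chrna4, Chrna5, Chrna7 and Chrnb2. They were chosen by gene name, each name matched 1 of the 54532 rows of the count table, and all 8 were among the 17195 genes that passed the filter on low counts. All 8 mice sequenced were of the C57BL/6 strain, 8 mo old, and carried the PS19 transgene, a mutant human tau driven by the mouse prion protein promoter. In the PS19 group (4 mice) this was the only change. The Adrb1+/m;PS19 group (4 mice) also carried 1 copy of a knock-in allele of Adrb1, the β1-adrenergic receptor gene, with a missense mutation linked to natural short sleep in people. Nontransgenic mice and mice with the Adrb1 allele alone were not analysed here, so the values describe cortex that expresses mutant tau. The tissue was dissected cortex, and in such bulk samples fewer cells of a type and less RNA per cell cannot be told apart.

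Acetylcholine reaches the cortex mainly from neurons of the basal forebrain and promotes wakefulness, REM sleep, attention and memory. It acts on 2 kinds of receptor. Muscarinic receptors are G protein-coupled: those encoded by Chrm1 and Chrm3 signal through Gq and phospholipase C, and those encoded by Chrm2 and Chrm4 through Gi/o, which lowers cAMP. Nicotinic receptors are ion channels of several subunits: Chrna4 and Chrnb2 products form the main high-affinity receptor of the brain, the Chrna5 product joins it as an accessory subunit, and the Chrna7 product can form a channel by itself.

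The libraries held between 14653222 and 21223754 counts per mouse. Values are given in CPM, counts per 1000000 after scaling of the library totals by edgeR's TMM factors. The quasi-likelihood test of edgeR, run over all 17195 genes, gave 481 of them (2.80%) an unadjusted p-value under 0.05. After Benjamini-Hochberg adjustment 0 remained, and the lowest adjusted value was 0.99957. DESeq2 gave 555 and limma-voom 492 genes an unadjusted p-value under 0.05, and neither gave any an adjusted one. Fitting every gene with at least 1 count gave 66 genes an adjusted edgeR p-value under 0.05, none of the 8 among them. Adrb1 itself had 36.8 ± 4.19 CPM (SD, n = 4) in PS19 and 35.0 ± 3.71 (SD, n = 4) in Adrb1+/m;PS19 mice, and since the allele differs by a base change, its count is no check of the genotype. Markers of cortical excitatory neurons were abundant in every mouse, with a summed level of 1943 to 2204 CPM in PS19 and 1839 to 2017 CPM in Adrb1+/m;PS19 mice, and none of the 11 was at 0. Of the 11, 8 had a log2 fold change below 0, where 49.8% of all genes did, with a median of -0.07 over the list. Neurod6, Slc17a7 and Tbr1 were lower and Cux1 higher at an unadjusted edgeR p under 0.05, where 1.37% and 1.42% of all genes were.

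None of the 8 receptor genes passed the test between genotypes. No gene of the 8 had an unadjusted p-value under 0.05, where 2.80% of all genes did, 1.42% as higher and 1.37% as lower in Adrb1+/m;PS19 mice, and the smallest was 0.125, for Chrm2, in edgeR. DESeq2 and limma-voom also gave 0 of 8. In none of the 8 were the genotypes separate in CPM, where 2.02% of all genes were, 1.02% with every Adrb1+/m;PS19 mouse the higher. The log2 fold changes, Adrb1+/m;PS19 over PS19, ran from -0.03 for Chrm3 to 0.26 for Chrm4, 4 above 0 and 4 below, with a median of -0.0031. Of all genes tested 49.8% were below 0, and their median was 0.00046. The summed level of the 8 genes was 366 ± 5.89 CPM (SD, n = 4) in PS19 and 369.7 ± 9.39 CPM (SD, n = 4) in Adrb1+/m;PS19 mice. A missed threshold does not show equal expression, and the 95% interval of each fold change is therefore given with each gene.

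**Figure D1:**
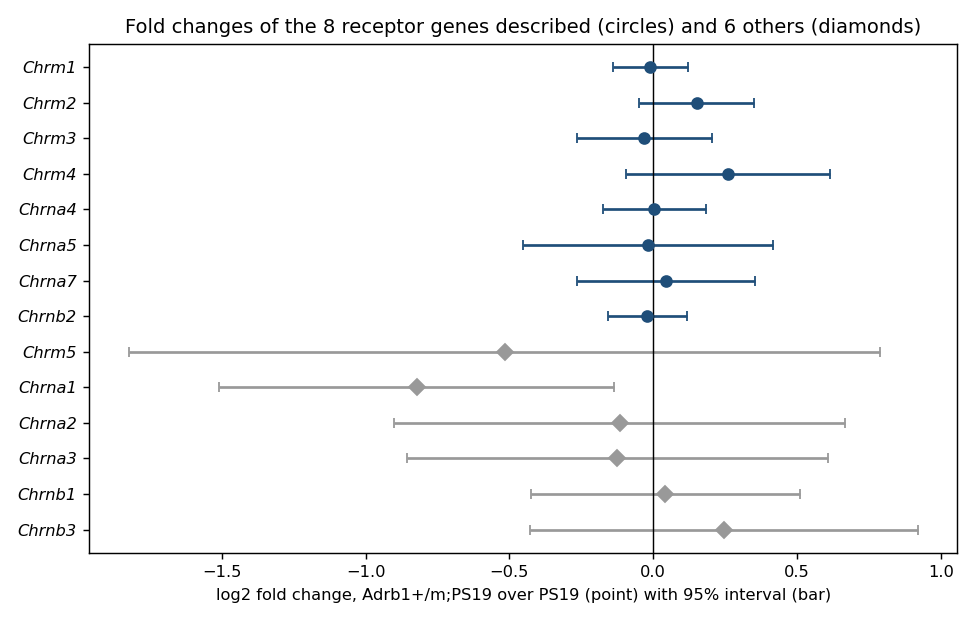
Log2 fold change (horizontal axis) of the 8 receptor genes described, circles, and of the 6 other acetylcholine receptor genes that passed the count filter, diamonds, with 95% intervals from edgeR. All 8 intervals of the circles include 0, and those of Chrna5 (-0.45 to 0.42) and Chrm4 (-0.09 to 0.62) are the widest of them.

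The start regions of 3 of the genes are shown because their levels behaved differently across the mice: Chrm4 and Chrna7 varied the most, and Chrnb2 was among the steadiest. They are the 250 bases before the RefSeq start in the mouse build GRCm38.p6, on the gene's own strand, 5′ to 3′. Chrna7 is printed without the last 43 of these, which lie inside the gene as counted. Capitals mark the GC box GGGCGG, the E-box CACGTG and the cAMP response element half-site TGACG, searched on both strands and overlaps included. TATAAA was also searched and found in none of the 3.
Chrm4, chr2:91921939-91922188, plus strand: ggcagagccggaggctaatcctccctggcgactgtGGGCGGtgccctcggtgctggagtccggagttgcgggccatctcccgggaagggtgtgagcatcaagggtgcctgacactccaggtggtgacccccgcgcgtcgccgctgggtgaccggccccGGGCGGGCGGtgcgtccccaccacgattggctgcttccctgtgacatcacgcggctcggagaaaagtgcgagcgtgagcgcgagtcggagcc
Chrna7, chr7:63212570-63212776, minus strand: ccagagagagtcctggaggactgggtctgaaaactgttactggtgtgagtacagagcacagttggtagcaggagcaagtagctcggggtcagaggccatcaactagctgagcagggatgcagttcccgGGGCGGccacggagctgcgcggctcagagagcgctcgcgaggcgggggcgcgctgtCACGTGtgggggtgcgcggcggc
Chrnb2, chr3:89764633-89764882, minus strand: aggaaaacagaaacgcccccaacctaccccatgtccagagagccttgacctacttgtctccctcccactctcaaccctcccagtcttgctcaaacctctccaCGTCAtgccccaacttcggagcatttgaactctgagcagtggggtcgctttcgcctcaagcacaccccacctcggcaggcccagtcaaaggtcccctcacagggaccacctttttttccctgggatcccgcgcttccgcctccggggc
The Chrm4 region held 3 GC boxes, 2 of which overlap, and 70% G and C. The 250 bases of Chrna7 held 1 GC box and 1 E-box with 67.2% G and C, and the Chrnb2 region held 1 half-site and 59.6% G and C. Of the 32851 regions of this length in the table, 32.7% held the GC box, 6.02% the E-box, 17.8% the half-site and 12.4% TATAAA, and the median content of G and C was 52.4%. A match describes letters and not a bound site. RefSeq regions were found for 7 of the 8 genes. The Chrm4 region also shows what the counts leave out: the deposited table counts Chrm4 over a single block of 1440 bases (chromosome 2, 91927249 to 91928688), which begins 5060 bases downstream of the RefSeq start at 91922189. The block holds no UTR, so its length is a coding length, and reads from any exon outside it were not part of the Chrm4 count.

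Levels of different genes were compared as CPM per kilobase of the gene length in the table. Chrm1, the main muscarinic receptor of cortical pyramidal neurons, was highest at 23.4 ± 1.33 CPM per kilobase (SD over the 8 mice), and its lowest mouse, at 21.4, was above every mouse of every other receptor gene. Chrm4 followed at 15.8 ± 3.39, above Chrm3 in 8 of 8 mice although their ranges over mice overlapped. Chrm3 at 8.61 ± 1.13, Chrna4 at 8.09 ± 0.702 and Chrnb2 at 7.25 ± 0.416 lay close together with overlapping ranges. Chrm3 was above Chrna4 in 6 of 8 mice and Chrna4 above Chrnb2 in 7 of 8. Chrm2 at 3.39 ± 0.339 and Chrna7 at 3.34 ± 0.556 did not differ beyond their spread, with Chrm2 the higher in 5 of 8 mice. Chrna5 was lowest at 0.745 ± 0.0676, 31.4 times below Chrm1. The place of Chrm4 rests on its short counted length: in CPM without division by length it ranked 5 of the 8 and Chrnb2 ranked 2.

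**Figure D2:**
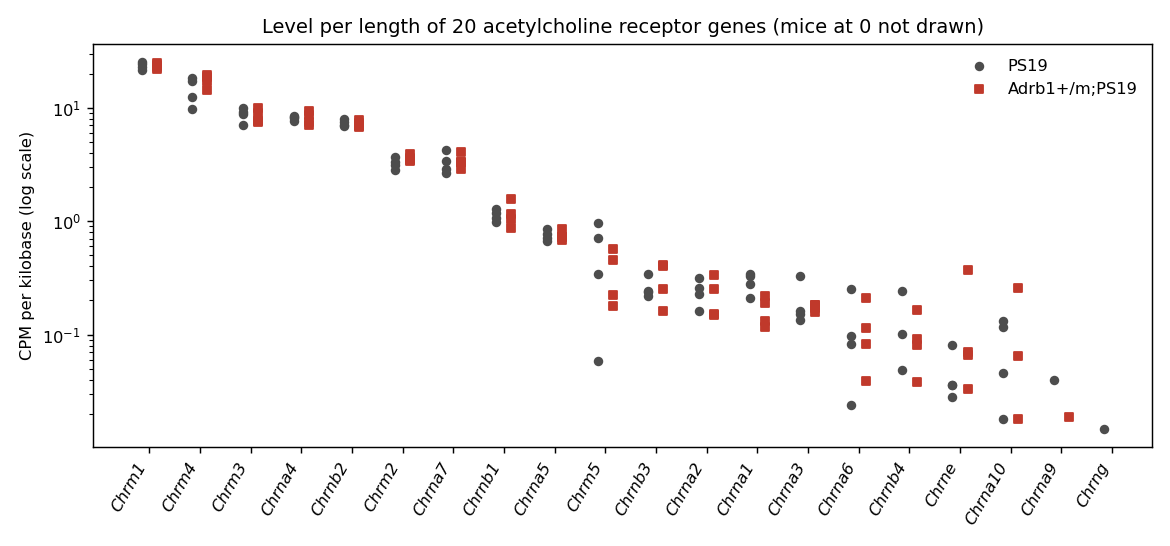
Level per length of the 20 acetylcholine receptor genes with any count, in CPM per kilobase on a log axis, 1 point per mouse (PS19 circles, Adrb1+/m;PS19 squares, mice at 0 not drawn). Chrm1 lies at 21.4 to 25.1 and Chrna5 at 0.674 to 0.846, and the genotypes lie over each other in the 8 genes described.

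Of the Gq-coupled receptors, Chrm1 (ENSMUSG00000032773, chromosome 19 of GRCm38, 8663789 to 8683587) had 149, 163, 139 and 159 CPM in PS19 mice m677, m668, m665 and m659. It had 154, 147, 143 and 161 CPM in Adrb1+/m;PS19 mice m671, m661, m660 and m658. The values of the second group all fell inside the range of the first. The means were 153 ± 10.6 and 151 ± 7.82 CPM (SD, n = 4 each), a log2 fold change of -0.01 with a 95% interval of -0.14 to 0.12 (edgeR). Chrm3 (ENSMUSG00000046159, chromosome 13, 9875486 to 10360847), known for its role in REM sleep and in secretion and smooth muscle, had 54.8, 43.6, 62.2 and 56.9 CPM in the PS19 mice and 56.2, 62.5, 47.5 and 47.0 CPM in the Adrb1+/m;PS19 mice, in the same order of mice. Both genotypes thus held high and low mice. The log2 fold change was -0.03 with an interval of -0.27 to 0.21, and its sign changed in 3 of the 8 fits on 7 mice. Of the Chrm1 exon bases, 329 are shared with Gm22820 on the other strand, and the strand setting of the counting is not stated.

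**Figure D3:**
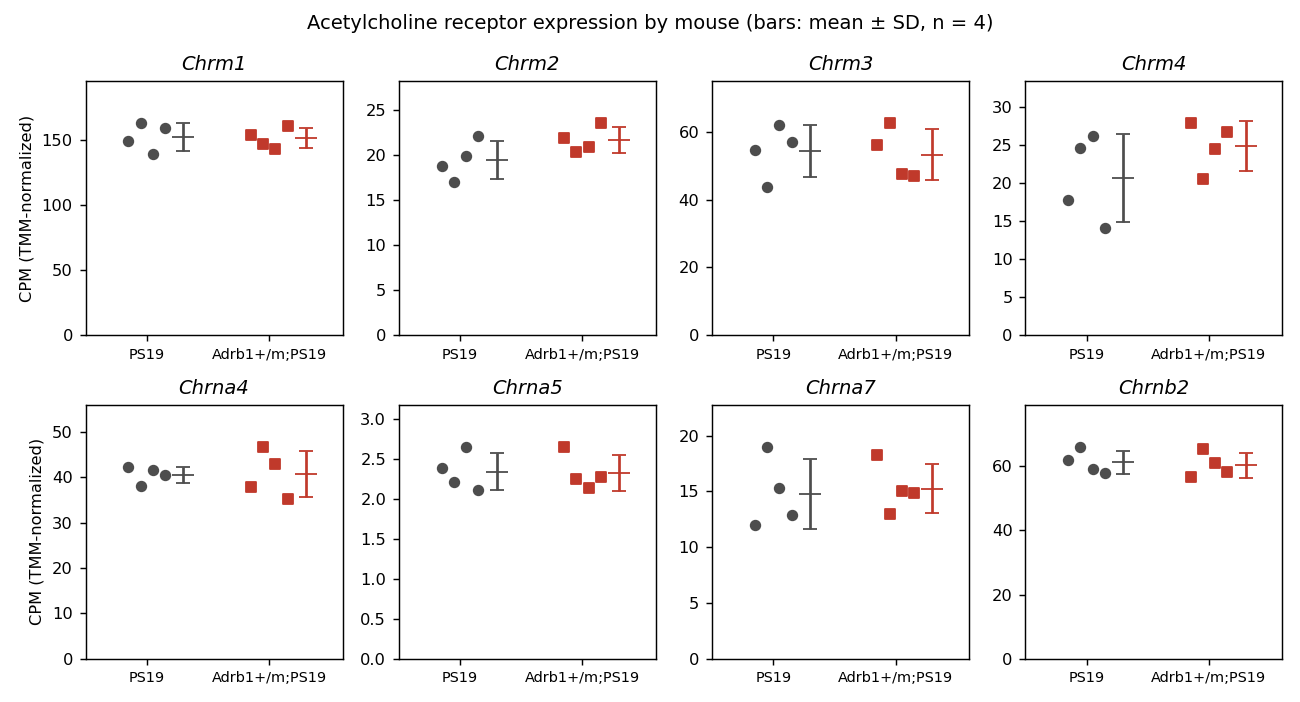
CPM of each of the 8 receptor genes in each mouse, PS19 circles and Adrb1+/m;PS19 squares, with the mean ± SD of 4 mice beside them, each panel on its own linear axis from 0. In every panel the genotypes overlap, and PS19 mice m659 and m677 are the lowest of all 8 in Chrm4, at 14.1 and 17.8 CPM.

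The Gi/o-coupled receptors had the 2 largest fold changes of the 8 genes, and neither passed the test. Chrm2 (ENSMUSG00000045613, chromosome 6, 36388084 to 36528414), an inhibitory autoreceptor of cholinergic terminals and a receptor of cortical neurons, had 18.7, 17.0, 19.9 and 22.1 CPM in PS19 mice m677, m668, m665 and m659. It had 21.9, 20.3, 20.8 and 23.5 CPM in Adrb1+/m;PS19 mice m671, m661, m660 and m658. Every Adrb1+/m;PS19 mouse was above PS19 mice m677, m668 and m665, and PS19 mouse m659 was above all of them but m658. The means were 19.4 ± 2.15 and 21.6 ± 1.40 CPM (SD, n = 4 each), a log2 fold change of 0.15 (standard error, SE, 0.09), with a 95% interval of -0.05 to 0.35 (edgeR unadjusted p = 0.125, adjusted p = 0.99957). Without m659 the log2 fold change was 0.22 with an unadjusted p of 0.0388 from edgeR, and without m668 it was 0.09. Chrm2 shares 142 bases of exon with 9330158H04Rik on the other strand.

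Chrm4 (ENSMUSG00000040495, chromosome 2), a receptor that is most abundant in the striatum and is also present in cortex, had 17.8, 24.7, 26.3 and 14.1 CPM in PS19 mice m677, m668, m665 and m659. It had 27.9, 20.5, 24.5 and 26.7 CPM in Adrb1+/m;PS19 mice m671, m661, m660 and m658. The PS19 group was split, with m668 and m665 inside the range of the other genotype and m677 and m659 below it. The means were 20.7 ± 5.76 and 24.9 ± 3.23 CPM (SD, n = 4 each), a log2 fold change of 0.26 (SE 0.16), with a 95% interval of -0.09 to 0.62 (edgeR unadjusted p = 0.136, adjusted p = 0.99957). An exact permutation test over mice gave a 2-sided p of 0.229, where the smallest that 4 mice against 4 can give is 0.0286. The estimate rested on single mice: it was 0.11 without m659 and 0.41 without m665, the latter with an unadjusted edgeR p of 0.0259. With no filter beyond 1 count the fold change was the same, 0.26, and the unadjusted edgeR p was 0.00688. DESeq2, also run on genes with at least 1 count, gave an unadjusted p of 0.115.

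The pair of subunits of the main high-affinity nicotinic receptor had fold changes close to 0. Chrna4 (ENSMUSG00000027577, chromosome 2, 181018380 to 181043546) had 42.2, 38.2, 41.5 and 40.4 CPM in PS19 mice m677, m668, m665 and m659. It had 37.9, 46.6, 42.9 and 35.3 CPM in Adrb1+/m;PS19 mice m671, m661, m660 and m658, which spread to both sides of the PS19 range. The log2 fold change was 0.0041 with a 95% interval of -0.18 to 0.18. Chrnb2 (ENSMUSG00000027950, chromosome 3, 89746195 to 89764632) had 62.0, 66.0, 59.0 and 57.8 CPM in the PS19 and 56.6, 65.3, 60.9 and 58.3 CPM in the Adrb1+/m;PS19 mice, in the same order. Its log2 fold change was -0.02 with an interval of -0.16 to 0.12, or -10.4% to 8.43%. Chrnb2 shares 1365 bases of exon with Adar on the other strand, an RNA editing gene at 173 ± 7.06 CPM in PS19 and 177 ± 14.0 CPM in Adrb1+/m;PS19 mice (SD, n = 4 each), and without strand the reads of the 2 genes cannot be told apart there. The log2 fold change of Adar was 0.03 (SE 0.06).

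Chrna5 (ENSMUSG00000035594, chromosome 9, 54980880 to 55007779), an accessory subunit known in deep layer neurons, was counted only 32 to 56 times per mouse. It had 2.39, 2.21, 2.64 and 2.11 CPM in the PS19 and 2.64, 2.25, 2.13 and 2.26 CPM in the Adrb1+/m;PS19 mice, nearly the same range in both. Its log2 fold change was -0.02, and the interval of -0.45 to 0.42 runs from -26.9% to 33.6%, so smaller changes were not detectable at this depth. Chrna7 (ENSMUSG00000030525, chromosome 7, 63098692 to 63212569), a calcium-permeable channel, had 12.0, 19.0, 15.3 and 12.9 CPM in PS19 mice m677, m668, m665 and m659. It had 18.2, 13.0, 15.002 and 14.8 CPM in Adrb1+/m;PS19 mice m671, m661, m660 and m658. Mouse m668 and mouse m671 were the highest, 1 in each genotype, and the means were 14.8 ± 3.12 and 15.3 ± 2.18 CPM (SD, n = 4 each). The log2 fold change was 0.04 with an interval of -0.27 to 0.35.

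The 8 genes differed in their spread between mice. The coefficient of variation over the 8 mice was 21.4% for Chrm4, 16.7% for Chrna7 and 13.2% for Chrm3, against 5.003%, 6.20% and 3.24% from counting alone. Chrm1 and Chrnb2 had the smallest, 5.70% and 5.74%. For Chrna5 the spread of 9.08% was below the 15.7% that counting alone gives, so its variation between mice could not be measured at this depth. After the genotype was fitted, the biological coefficient of variation of Chrm4 was above that of 97.4% of the 2581 genes of like level (within 0.5 on the log2 scale), and that of Chrm3 above 94.6% of 2542 such genes. The value for Chrnb2 was above 45.3% of 2479 such genes, near the middle.

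**Figure D4:**
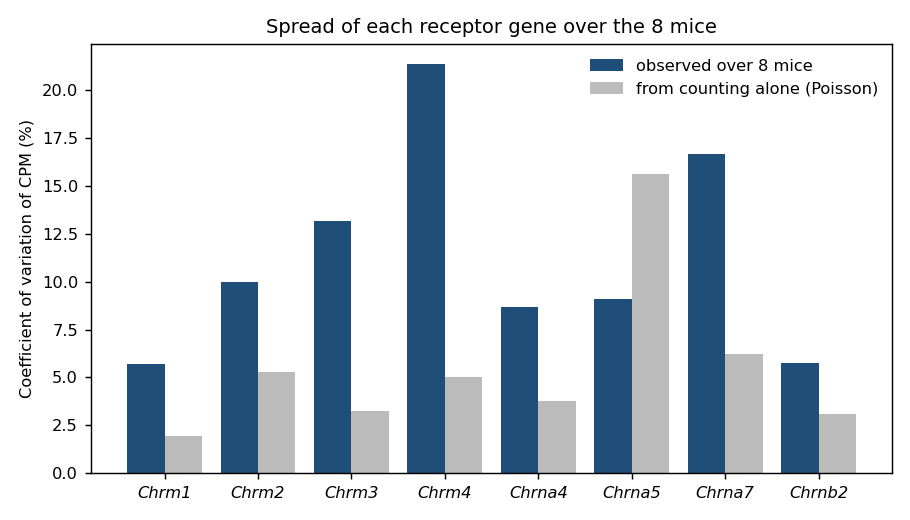
Coefficient of variation of CPM over the 8 mice for each receptor gene (dark bars, percent, axis from 0) beside the value that counting alone would give (pale bars). Chrm4 at 21.4% and Chrna7 at 16.7% stand highest, and Chrna5 at 9.08% is the only gene below its counting value.

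Chrm4 and Chrna7 were lowest in the same 3 mice as markers of striatal projection neurons, while the order of the other mice matched less. The striatal score is the mean over 12 markers, Chrm4 not among them, of the log2 CPM minus each gene's mean over the mice. The 3 mice with the lowest score, m677 (-0.53), m659 (-0.49) and m661 (-0.42), were also the 3 lowest in Chrm4, at 17.8, 14.1 and 20.5 CPM, and the 3 lowest in Chrna7, at 12.0, 12.9 and 13.0 CPM. The 2 mice with the highest score, m671 (0.59) and m668 (0.44), were the 2 highest in Chrna7, at 18.2 and 19.0 CPM, and m671 was the highest in Chrm4. Mouse m668, however, was the fourth highest in Chrm4 at 24.7 CPM, and m665, with a score of -0.04, was the third highest in both genes at 26.3 and 15.3 CPM. The 2 most abundant markers, the adenylyl cyclase Adcy5 and the phosphodiesterase Pde10a, were at 305 and 261 CPM in m677 and at 540 and 506 CPM in m671. Ppp1r1b, which encodes DARPP-32, was at 202 and 486 CPM in these mice. Both genotypes held mice at either end. All 12 striatal markers had a log2 fold change above 0, where 49.8% of all genes were below it, with a median of 0.33. That median was 0.14 without m671, 0.18 without m677, 0.19 without m659, 0.50 without m661 and 0.58 without m668. Of the 12, only Tac1 (log2 fold change 0.47, SE 0.20) had an unadjusted p under 0.05, where 1.42% of all genes did as higher, none was at 0, and the summed level was 1411 to 2642 CPM in PS19 and 1501 to 2909 CPM in Adrb1+/m;PS19 mice. Fitting every gene with at least 1 count gave 9 of the 12 an adjusted edgeR p under 0.05, among 66 of 33614 genes. DESeq2, also run on genes with at least 1 count, gave 0 of 33611 genes such a p. The exact permutation p over mice was 0.286 for Adcy5, 0.429 for Ppp1r1b and 0.486 for Pde10a.

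With the striatal score as a covariate in the edgeR fit, an alternative chosen after seeing these values, the log2 fold change of Chrm4 was 0.10 (SE 0.12) in place of 0.26 (SE 0.16). That of Chrna7 was -0.11 (SE 0.10), and that of Chrm2 was 0.17. None of the 8 had an unadjusted p under 0.05 in that fit. Chrm2 was not ranked as the score, with 17.0 CPM in m668 and 22.1 CPM in m659. The score comes from expression in the same 8 mice, and all 12 of its markers had a log2 fold change above 0. This fit therefore cannot tell striatal tissue from striatal expression, nor either fully from genotype. The part of striatal tissue or of striatal expression in these values was not tested.

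**Figure D5:**
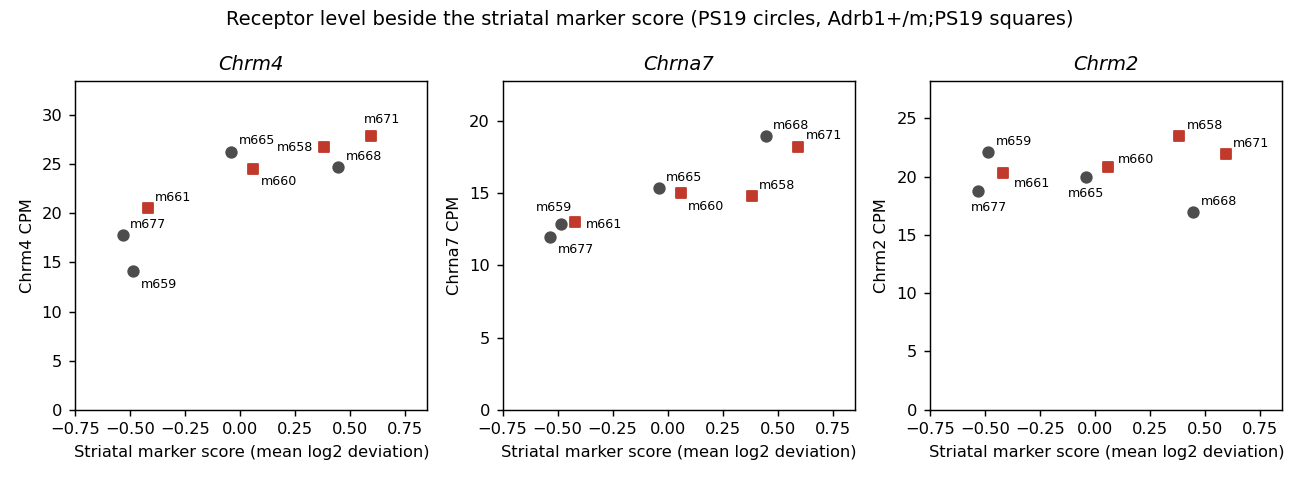
CPM of Chrm4, Chrna7 and Chrm2 (vertical axes, from 0) in each mouse against the striatal marker score (mean log2 deviation), PS19 circles and Adrb1+/m;PS19 squares, with the mouse named. Chrm4 and Chrna7 are lowest in m677, m659 and m661 at the left, while Chrm2 is lowest in m668, at 17.0 CPM, toward the right.

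Among the 4 muscarinic genes, Chrm1 made up 47.4% ± 4.89 of the summed level per length in PS19 and 44.3% ± 1.23 in Adrb1+/m;PS19 mice (SD, n = 4 each). The Gi/o-coupled Chrm2 and Chrm4 made up 32.7%, 38.4%, 40.7% and 28.6% in PS19 mice m677, m668, m665 and m659 and 41.2%, 35.0%, 40.8% and 41.0% in Adrb1+/m;PS19 mice m671, m661, m660 and m658. Mice m659, m677 and m661 had the lowest shares, in the order of their Chrm4 levels. The ratio of Chrna4 to Chrnb2 per length was 1.11 ± 0.0982 in PS19 and 1.12 ± 0.0826 in Adrb1+/m;PS19 mice, and ran from 0.965 to 1.19 over all 8. Without division by length the ratio was 0.669, with Chrnb2 the higher, and the share of Chrm2 and Chrm4 was 17.4% in place of 37.3% over all 8 mice. Chrna5 stood at 0.0925 ± 0.00765 and 0.0931 ± 0.0171 of Chrna4. Per length, the 4 muscarinic genes together were 2.43 to 3.04 times the 4 nicotinic ones. This ratio also depends on the counted lengths, of which that of Chrm4 is the shortest. These shares combine the genes above and are given as descriptions with no test.

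The table also lists 13 other acetylcholine receptor genes, 6 of which passed the count filter. Chrnb1, a subunit known from the muscle receptor, was the most abundant at 1.14 CPM per kilobase, above Chrna5. Chrna1, also a muscle subunit, had 0.919, 1.45, 1.23 and 1.51 CPM in PS19 mice m677, m668, m665 and m659 and 0.960, 0.575, 0.840 and 0.509 CPM in Adrb1+/m;PS19 mice m671, m661, m660 and m658. Only m677 and m671 made the groups overlap. These are 9 to 26 counts per mouse, and the log2 fold change of -0.82 (SE 0.32) had an unadjusted p of 0.0225 and an adjusted p of 0.99957 from edgeR. Chrna1 was the only one of the 6 under 0.05, where 2.80% of all genes were, 1.37% as lower. Its exact permutation p over mice was 0.0571. Without any 1 of the mice m668, m659, m661 and m658 its unadjusted edgeR p was 0.0542 to 0.0668. Chrm5, the Gq-coupled receptor of dopamine neurons, was counted 25, 8, 2 and 19 times in PS19 mice m677, m668, m665 and m659 and 6, 6, 13 and 16 times in Adrb1+/m;PS19 mice m671, m661, m660 and m658. Its 4 highest mice, m677, m659, m658 and m660, were also the 4 on 1 side of the first principal component. That component held 21.9% of the variance of the genes that passed the filter, and its part was not tested. Chrna2, Chrna3 and Chrnb3 had log2 fold changes of -0.12, -0.12 and 0.25 (SE 0.36, 0.34 and 0.31). Leaving out single mice moved Chrnb3 between 0.065 (without m661) and 0.46 (without m658). The other 7 genes did not pass the filter: Chrna6 had 1 to 12 counts per mouse, Chrnb4 and Chrne at most 13, Chrna10 at most 12, Chrna9 at most 2, Chrng at most 1, and Chrnd 0 in every mouse.

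Of the 8 genes of acetylcholine synthesis, transport and breakdown, 3 had an unadjusted p under 0.05, all with higher expression in Adrb1+/m;PS19 mice, where 1.42% of all genes did. None passed after adjustment in that fit. Slc5a7, the choline transporter of cholinergic terminals, had 6.61, 12.9, 6.94 and 7.29 CPM in PS19 mice m677, m668, m665 and m659 and 12.4, 10.7, 12.4 and 17.2 CPM in Adrb1+/m;PS19 mice m671, m661, m660 and m658, with m668 alone of its group in the upper range. Its log2 fold change was 0.65 (SE 0.21, edgeR unadjusted p = 0.00701, adjusted p = 0.99957), and its exact permutation p over mice was 0.114. Fitting every gene with at least 1 count gave it an adjusted edgeR p of 0.0013, while DESeq2 gave 0 of 33611 genes an adjusted p under 0.05. Slc18a3, the vesicular acetylcholine transporter, and Chat, the synthesizing enzyme, had log2 fold changes of 0.79 and 0.59 (SE 0.31 and 0.25). Over mice, their exact permutation p-values were 0.0857 and 0.114. Their unadjusted edgeR p-values were 0.0250 and 0.0360, and both were over 0.05 without m677 (0.0620 and 0.0852) or without m658 (0.0858 and 0.117), for Slc18a3 also without m665 (0.0646) and for Chat without m671 (0.0839). The log2 fold change of Chat was 0.36 without m677. With the striatal score as a covariate, Chat was at 0.37 (edgeR unadjusted p = 0.119) and Slc18a3 at 0.59 (edgeR unadjusted p = 0.0564), while Slc5a7 was at 0.48 (edgeR unadjusted p = 0.0104). These 3 genes mark cholinergic neurons in general, those of the striatum included, and were already known to be higher when the list was written. Of 10 markers listed for basal forebrain cholinergic neurons, the 3 among them, all 10 had a log2 fold change above 0, with a median of 0.67. Of all genes tested, 49.8% were below 0. Of the 10, 8 had an unadjusted edgeR p under 0.05, where 1.42% of all genes did as higher. This list was also chosen with earlier results of these data known, so its counts are not a separate result. The summed level of the 10 was 40.3 to 61.8 CPM in PS19 and 63.3 to 93.2 CPM in Adrb1+/m;PS19 mice, and none was at 0. All 12 striatal markers were also above 0, and 8 of 11 cortical excitatory markers below it. The covariate was the striatal score alone, and with it the median of the 10 basal forebrain markers was 0.59. The part of cholinergic, cortical or striatal tissue in the 3 genes was not tested. The enzyme that breaks acetylcholine down, Ache, had 62.1 ± 4.21 and 67.0 ± 3.96 CPM (SD, n = 4 each), a log2 fold change of 0.11 (SE 0.06), and its groups overlapped.

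Of the 9 tested genes for nicotinic receptor assembly and Ly6 family regulators, none had an unadjusted p under 0.05. The smallest was 0.0526, for the chaperone Ric3, at 84.8 ± 4.45 and 92.3 ± 4.53 CPM (SD over 4 mice). It was 0.0496 with a minimum of 10 counts, 0.0366 without m677, 0.0347 without m665, 0.0217 without m671 and 0.0210 with the striatal covariate. It rose to 0.138 without m668, 0.130 without m659, 0.147 without m661, 0.0896 without m660 and 0.0905 without m658. With no filter beyond 1 count it was 0.0680. All of these are unadjusted edgeR values. Lynx1, a toxin-like brake on nicotinic receptors, was the most abundant, with a log2 fold change of -0.05 and a standard error of 0.08. In the Gq pathway, 0 of 15 genes had an unadjusted p under 0.05 and the median log2 fold change was -0.0047. In the Gi/o pathway, 0 of 15 did and the median was -0.0066, and Rgs9 of that list is also a striatal marker. The smallest p in the Gi/o list was that of Kcnj5, a G protein-gated potassium channel at 0.236 to 1.197 CPM, with a log2 fold change of 0.92 and a standard error of 0.47.

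Over the 28 pairs of the 8 genes, 2 had levels that correlated across the 8 mice at an unadjusted p under 0.05, and none did after adjustment over the pairs. Chrm4 and Chrna7 had a Pearson's r of 0.74 (exact permutation p = 0.0382, adjusted 0.534) and a Spearman's rho of 0.74 (exact permutation p = 0.0458, adjusted 0.537). Without the 2 mice farthest from the median of Chrm4 the r was 0.62. Chrm2 and Chrnb2 had an r of -0.77 (exact permutation p = 0.0234, adjusted 0.534) and a rho of -0.79 (exact permutation p = 0.0279, adjusted 0.537), with an r of -0.62 without 2 mice. Chrna4 and Chrnb2, whose products assemble together, had an r of 0.47 (exact permutation p = 0.243, adjusted 0.695) and a rho of 0.52 (exact permutation p = 0.197, adjusted 0.757), and an r of 0.02 without 2 mice. Genotypes hold 4 mice each, too few for a correlation within one.

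For each receptor gene, the protein-coding gene of most similar pattern over the 8 mice was taken from 14487 genes. By Pearson's r of log2 CPM these were Syt17 for Chrm1 (0.96), Rmdn2 for Chrm2 (0.95), Zfpm2 for Chrm3 (0.99), 9330182L06Rik for Chrm4 (0.98), Uqcc3 for Chrna4 (0.95), Zfyve21 for Chrna5 (0.96), Ap1ar for Chrna7 (0.97) and Dis3 for Chrnb2 (0.99). Each is the highest of these over only 8 mice, so no p is given. Among the 50 genes most like Chrna7 were 5 of the 12 striatal markers, and among the 50 most like Chrm4 were 2. The r of the 50th gene was 0.91 for Chrna7 and 0.87 for Chrm4. These counts, out of 14487 genes compared, rest on the same 8 mice as the striatal score and are not a separate result. Among the 50 most like each of the other 6 genes there was no striatal marker.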

How the data were processed

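The cortex RNA-seq libraries of 8 mice were compared by genotype as the labels give it. Per the labels and the methods, clean reads were aligned by the authors to GRCm38 (mm10) with HISAT2 2.0.5 and counted per gene with featureCounts 1.5.0-p3, and the raw counts were deposited. How strand, read pairs and multiply mapped reads were handled is not given in the sources used here. The deposited table's gene length, another value of the authors' annotation, gave levels per kilobase, and for the 8 genes it equals the exon bases of GENCODE M21.

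Genes were kept with filterByExpr, normalized with TMM factors and tested with edgeR 4.0.16 (glmQLFit, glmQLFTest) under R 4.3.3, 2-sided and with genotype as the only term. Adjustment was by Benjamini-Hochberg over 17195 genes. A standard error is the log2 fold change divided by the square root of F, and its 95% interval uses the t distribution of the fit. Log2 values for scores and correlations use a prior count of 2. In simulated counts with 200 of 16981 genes changed 2-fold, edgeR gave 99.5% an unadjusted p under 0.05, and 4.90% of unchanged genes. The changed genes were drawn from those with a mean above 2 CPM, and smaller changes were not simulated. DESeq2 1.42.0 and limma 3.58.1 served as alternatives. Depth, 14653222 to 21223754 counts, leaves Chrna5 imprecise.

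The genes, lists and tests were chosen with earlier results of these data known. Named genes were the 8, other receptor genes that passed the filter, pathway genes with an unadjusted p under 0.05 or the smallest of their list, the most abundant markers and 1 most similar gene for each. A gene that the rule names is not reported here. Chrm5, Ppp1r1b, Neurod6, Slc17a7, Tbr1, Cux1, Tac1, Ache, Lynx1, Rgs9 and Adar and the receptor genes below the filter were named after their values were seen where they fall outside that rule. Each mouse is 1 library. The methods name littermates as controls, but neither they nor the labels say which mice shared a litter. The tests treated the mice as independent, which could not be checked. A p-value compares the genotype difference with the spread between these mice. Replicates differed by more than sampling noise (chi-square of 4.83 to 9.94 per degree of freedom).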

Additional observations from a re-analysis of the deposited data

Results flagged for a closer look

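Both results here were flagged because 1 of the 4 mice of a genotype stood far from the other 3. In 36 such checks, about 1 in 20 is flagged by chance. In PS19 mice, Chrna3, a subunit of ganglionic and habenular nicotinic receptors, had 1.73 CPM in m668 and 0.708 to 0.843 CPM in the others, so that 0.867 of the range lay in the gap. This is 25 counts against 13 to 15. In Adrb1+/m;PS19 mice, the share of Chrm2 and Chrm4 in the level of the 4 muscarinic genes was 35.0% in m661 and 40.8% to 41.2% in the others, a gap of 0.934 of the range. Mouse m661 also had the lowest striatal marker score of its genotype, -0.42, and the part of striatal tissue in that share was not tested.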

How the results depend on the processing

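The alternatives were DESeq2, limma-voom, DESeq2 size factors in edgeR, fitting every gene with at least 1 count, a minimum of 10 counts in each of the mice, protein-coding genes alone and leaving out each mouse in turn. The striatal score as a covariate was added after seeing the data. Fitting every gene with at least 1 count gave 1366 of 33614 genes an unadjusted edgeR p under 0.05. Among them was 1 of the 8 receptor genes, Chrm4 (log2 fold change 0.26, edgeR unadjusted p = 0.00688). DESeq2, also run on genes with at least 1 count, gave Chrm4 an unadjusted p of 0.115. Over the fits that leave out a mouse, 0 to 1 of the 8 had an unadjusted edgeR p under 0.05. Of the 17450 to 17573 genes in those fits, 431 to 674 did.

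The log2 fold change of Chrna4 was -0.0011 with limma-voom, and with the covariate that of Chrm3 was 0.048 and that of Chrna7 -0.11. Leaving out each mouse gave ranges of -0.052 to 0.022 for Chrm1, 0.094 to 0.22 for Chrm2, -0.12 to 0.042 for Chrm3, 0.11 to 0.41 for Chrm4, -0.070 to 0.066 for Chrna4, -0.083 to 0.053 for Chrna5, -0.053 to 0.18 for Chrna7 and -0.062 to 0.017 for Chrnb2, so for 6 of the 8 the sign depends on single mice. The cause was not tested. The same ranges were -0.37 to 0.051 for Chrna2, -0.28 to 0.23 for Chrna3 and -0.14 to 0.15 for Chrnb1. Without division by length the share of Chrm2 and Chrm4 was 17.4% and the ratio of Chrna4 to Chrnb2 0.669, since the counted lengths differ.

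No paired analysis was possible because no label ties a mouse of one genotype to a mouse of the other. Of the 8 genes, depth limits Chrna5 the most.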
